A study of Mus musculus with 6 samples.

Results

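Crystallins, the bulk proteins of the lens, and Bfsp2, a subunit of the lens beaded filament, were described across 6 expression arrays labelled as mouse retina. The members were 10 genes, chosen from earlier readings of these same arrays in which the array titled wild-type replicate 2 stood apart, and they are 10 of the 18193 genes measured. All 12 probe sets whose platform annotation names exactly one of these genes were taken, of 34945 such probe sets in all. Each gene had 1 probe set except Cryab, which had 3. Because the difference between wild-type replicate 2 and the other arrays chose the genes, that difference is given below as a description without a test.

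By their labels, all arrays carried total RNA of neural retina from BALB/c AJ mice, an albino strain. The labels give the tissue as taken at post-natal day 40 and freed of pigment epithelium by dissection. The wild-type group (wt/wt) had 3 arrays, and 3 arrays were labelled as homozygous knockout (ko/ko) of Nxnl2, the gene for the thioredoxin-like rod-derived cone viability factor 2. The labels used here do not say how the Nxnl2 allele was made, which sex the animals had or how many animals stand behind an array. P-values therefore measure only the spread between these arrays, which may be technical.

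The array labelled knockout replicate 3 went against its tissue and genotype labels. Its summed linear level over 16 rod markers was 7678, against 141590 to 156230 on the other 5 arrays. Of these markers Gnb1, at 12.78 on that array, weighed most in its sum. The median log2 difference of the 16 from the mean of wild-type replicates 1 and 3 was -9.03 there. Over 13 olfactory and airway genes the summed linear level on that array was 96657 against 430 to 481. Nxnl2 read 11.38, 11.45 and 11.42 in wild type, 3.78 and 3.73 in knockout replicates 1 and 2, and 9.21 on the array labelled knockout replicate 3. The other 5 arrays are called the retina arrays, and they correlated with one another at 0.994 to 0.996 over probe sets. A value is a log2 RMA intensity, so a difference of 1 is a doubling. As a guide to background, the brightest Bacillus control probe set, which has no mouse target, read 4.13 to 4.60 on the 6 arrays.

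Alpha-crystallins are small heat shock proteins that keep other proteins from aggregating. Beta- and gamma-crystallins are structural proteins that pack densely in lens fibre cells and give the lens its refractive power. Fibre cells also build a lens-specific intermediate filament, the beaded filament, from Bfsp1 and Bfsp2. Some crystallins are also made outside the lens, Cryab most widely, and crystallin transcripts are known from retina, where injury can change them. In whole tissue, a lower value may mean fewer cells of a type or less RNA per cell, and these cannot be told apart.

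Lens-specific transcription of crystallin genes is known to use MAF proteins, which bind a palindrome called MARE. RefSeq promoter windows (GRCm38.p6, 250 bases before to 50 after the start site) were held for 9 of the 10 genes. The core letters TGCTGA, searched on both strands, lay in 7 of these 9 windows, those of Cryaa, Cryba1, Cryba2, Cryba4, Crybb1, Crybb3 and Crygs. Of all 32851 windows in the table, 19.5% held it. The longer form TGCTGAC, each match of which contains a match of TGCTGA, lay in 4 of the 9 windows, against 4.67% of all windows. The TATA box letters TATAAA, also on both strands, lay in 4 of the 9, against 13.6% of all. The inverted heat shock unit GAANNTTC lay in 0 of the 9, against 7.86% of all. These motifs were picked for their known roles in crystallin or heat shock genes and their matches are letters in a window, not binding sites. The 4 windows with the longer form are shown as examples, from genes that read 6.04-fold to 9.61-fold higher on 1 array than on the other retina arrays. Each is the 200 bases before the start site, 5′ to 3′ on the strand of the gene, with TGCTGA and TATAAA in capitals.
Cryaa, chr17:31677731-31677930, plus strand: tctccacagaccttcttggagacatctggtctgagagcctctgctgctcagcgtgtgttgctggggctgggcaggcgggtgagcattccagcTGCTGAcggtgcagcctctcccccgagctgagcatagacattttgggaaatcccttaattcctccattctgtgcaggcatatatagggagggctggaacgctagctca
Cryba1, chr11:77725294-77725493, minus strand: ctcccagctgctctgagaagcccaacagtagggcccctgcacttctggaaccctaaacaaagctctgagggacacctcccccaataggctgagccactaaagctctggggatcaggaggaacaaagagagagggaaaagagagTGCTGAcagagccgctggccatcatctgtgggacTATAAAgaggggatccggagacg
Cryba4, chr5:112252519-112252718, minus strand: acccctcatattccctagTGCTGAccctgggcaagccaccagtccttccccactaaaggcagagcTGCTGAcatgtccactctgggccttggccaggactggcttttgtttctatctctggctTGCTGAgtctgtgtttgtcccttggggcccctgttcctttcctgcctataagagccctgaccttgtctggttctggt
Crybb1, chr5:112255620-112255819, plus strand: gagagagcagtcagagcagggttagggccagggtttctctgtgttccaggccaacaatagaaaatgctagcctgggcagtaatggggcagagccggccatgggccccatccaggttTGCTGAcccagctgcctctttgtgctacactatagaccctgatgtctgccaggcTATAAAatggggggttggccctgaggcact
Cryba4 and Crybb1 are transcribed away from each other, with start sites 3302 bases apart. With the start site as zero, the nearest TGCTGA match begins at position -108 in Cryaa, -57 in Cryba1, -77 in Cryba4 and -84 in Crybb1. TATAAA begins at -30 in Crybb1 and -23 in Cryba1.

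Every one of the 10 genes read highest on wild-type replicate 2. The difference from the mean of the other 4 retina arrays had a median of 2.77 over the 10 genes, a median fold of 6.85, and ran from 1.74-fold for Bfsp2 to 9.61-fold for Cryba4. Over all 18193 genes the median difference was -0.02. Of the 10 genes, 9 lay at least 1 log2 unit above each of the other 4 retina arrays, where 0.121% of all genes (22 genes) did. Of the 10, 8 did so by at least 2 log2 units, where 0.0605% of all genes (11 genes) did. The value just inside the limit of 1 was that of Cryab, 1.75 above the highest other array, and the value just outside it was that of Bfsp2, at 0.68. A further Cryab probe set lay 2.00 above its highest other array. These shares describe the contrast that chose the genes and nothing is read from them.

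**Figure D1:**
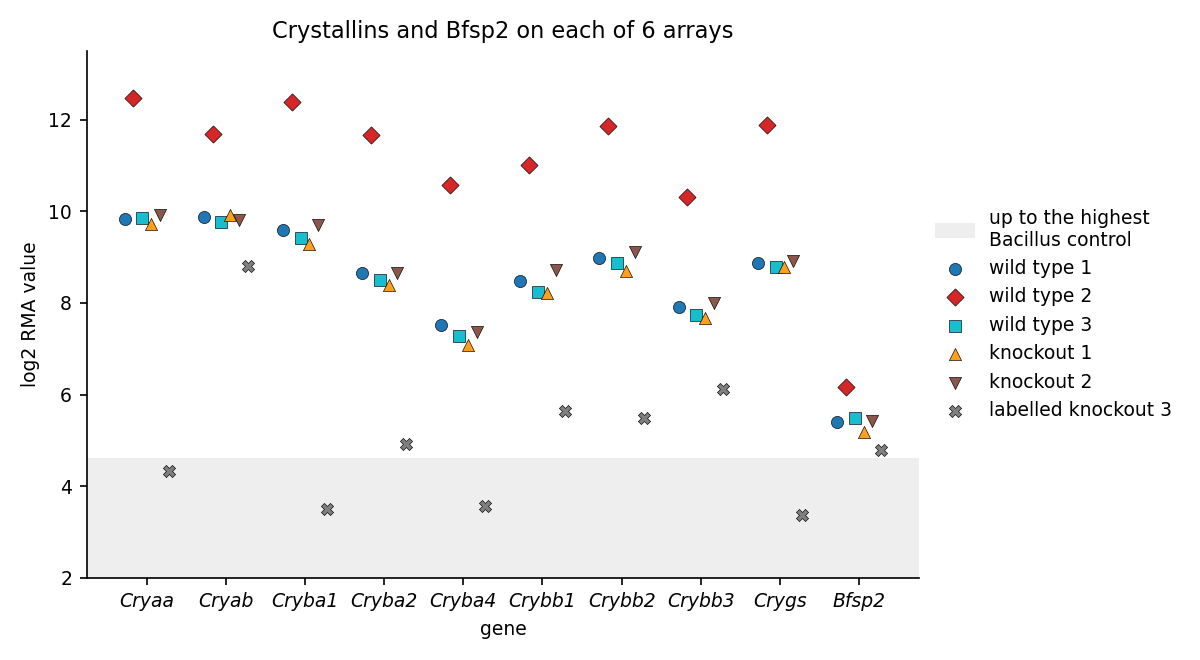
Log2 RMA value (vertical axis) of the 10 genes on each of 6 arrays, 1 point an array, with the brightest probe set for Cryab; the grey band reaches to the highest Bacillus control of any array, 4.60. Wild-type replicate 2 is the highest point of every gene, the other 4 retina arrays lie within 0.50 of one another for each gene, and the array labelled knockout replicate 3 is the lowest point of every gene.

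Of the alpha-crystallins, Cryaa is largely restricted to lens and Cryab is made in many tissues. Cryaa read 9.83, 12.47 and 9.86 in wild-type replicates 1 to 3, and 9.72 and 9.92 in knockout replicates 1 and 2. On the array labelled knockout replicate 3 it read 4.33. The wild-type and knockout retina arrays overlapped, and wild-type replicate 2 stood 6.25-fold above the mean of the other 4. The brighter Cryab probe set read 9.87, 11.68 and 9.76 in wild type, 9.93 and 9.81 in knockout replicates 1 and 2, and 8.81 on the array labelled knockout replicate 3. Wild-type replicate 2 was again the high array, at 3.57-fold above the other 4, and the array labelled knockout replicate 3 was only 1.03 below their mean. A further Cryab probe set gave nearly the same values, 9.83, 11.87, 9.72, 9.59, 9.87 and 8.76 in the same order. The third read 3.35 to 3.63 on all 6 arrays, below the highest Bacillus control of each, and gives no level.

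Acidic beta-crystallins pair with basic ones in the fibre cell. Cryba1, which encodes the A3 and A1 forms, read 9.59, 12.39 and 9.41 in wild type and 9.28 and 9.71 in knockout replicates 1 and 2. The difference of wild-type replicate 2 from the other 4 arrays was 7.44-fold. Cryba2 read 8.65, 11.66 and 8.51 in wild type and 8.38 and 8.64 in knockout, a difference of 8.68-fold. Neither gene separated wild-type replicates 1 and 3 from the 2 knockout arrays. Cryba4 read 7.51, 10.57 and 7.27 in wild type and 7.08 and 7.37 in knockout, and its 9.61-fold difference was the largest of the 10. On the array labelled knockout replicate 3 the values of Cryba1, Cryba2 and Cryba4 were 3.50, 4.92 and 3.58, of which only Cryba2 lay above the Bacillus controls of that array.

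Among the basic beta-crystallins wild-type replicate 2 was again the high array. Crybb1 read 8.49, 11.01 and 8.24 in wild type and 8.21 and 8.71 in knockout replicates 1 and 2, which put wild-type replicate 2 at 6.04-fold above the other 4 arrays. Crybb2, also known from neural tissue, read 8.97, 11.86 and 8.88 in wild type and 8.69 and 9.11 in knockout, a difference of 7.73-fold. Crybb3 read 7.91, 10.31 and 7.74 in wild type and 7.68 and 7.996 in knockout, a difference of 5.58-fold. In each of these 3 genes knockout replicate 2 was the highest of the other 4 arrays and knockout replicate 1 the lowest. Their values on the array labelled knockout replicate 3 were 5.64, 5.49 and 6.12, all above its Bacillus controls.

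Crygs, the gamma-crystallin that fibre cells still make in the adult, read 8.87, 11.88 and 8.79 in wild type and 8.78 and 8.92 in knockout replicates 1 and 2. The other 4 retina arrays spanned only 0.13, the narrowest of the 10 genes, and wild-type replicate 2 lay 8.25-fold above them. Bfsp2 was the exception. It read 5.41, 6.17 and 5.48 in wild type, 5.17 and 5.41 in knockout, and 4.78 on the array labelled knockout replicate 3. It never reached the middle of the distribution, with 34.1% to 43.6% of genes below it on the 5 retina arrays.

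Crystallins high on every retina array were separated from those high on 1 array by their place among all genes on the array. This split depends on the limit set, and probe sets differ in brightness. Genes on either side of it were far higher on wild-type replicate 2, at 6.25-fold for Cryaa and 5.58-fold for Crybb3. At the 90th percentile, Cryaa and Cryab stood at or above the limit on all 5 retina arrays, 2 of the 10 genes, where 8.89% of all genes did. Cryaa had 90.01% to 99.5% of genes below it and Cryab 90.05% to 98.7%, so both only just reached it on their lowest arrays. For Cryab this holds for the brighter probe set; the other informative one reached the 90th percentile on 3 of the 5 retina arrays. Just outside it was Cryba1, with 85.3% of genes below it on its lowest array. Cryba1, Cryba2, Cryba4, Crybb1, Crybb2, Crybb3 and Crygs passed the 90th percentile on wild-type replicate 2 alone, and Bfsp2 passed it on none. At the 75th percentile 5 of the 10 genes, namely Cryaa, Cryab, Cryba1, Crybb2 and Crygs, stood high on all 5 retina arrays, where 23.1% of all genes did. With probe sets under the 40th percentile removed, which raises the bar, 0 of the 10 passed the 90th percentile on all 5. All 10 genes read above the highest Bacillus control of each retina array, so none was detected on wild-type replicate 2 alone.

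The remaining crystallins were lens gamma-crystallins, the Crybg genes, whose proteins carry beta-gamma-crystallin domains, and enzymes or binding proteins with a crystallin name. Of 13 further crystallin genes measured, 10 lay above the mean of the other 4 arrays on wild-type replicate 2, with a median difference of 0.21, and 43.95% of all genes did so. Crygd read 8.10, 10.98 and 7.79 in wild type and 7.69 and 8.69 in knockout replicates 1 and 2, a difference of 7.51-fold. Crygb read 8.82, 11.51 and 8.50 in wild type and 8.34 and 9.06 in knockout, a difference of 7.10-fold. These are fibre cell genes of the gamma-crystallin cluster, whose near-identical copies may share signal. Crygf read 6.78 to 7.56 on the other 4 arrays and 8.84 on wild-type replicate 2. Crygn, a gamma-crystallin also known from retina, read 4.02 to 4.24 on the other 4, below the Bacillus controls of each, and 6.07 on wild-type replicate 2. It was the only further crystallin above the controls on that array alone.

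Of the Crybg genes, Crybg1 and Crybg2 lay below the Bacillus controls on all 5 retina arrays, and Crybg3 read 7.18 on wild-type replicate 2 and 6.96 to 7.04 on the other 4. Enzymes and binding proteins that carry a crystallin name because other vertebrates use them as lens proteins did not stand out there. The quinone reductase Cryz read 9.75 on wild-type replicate 2 and 9.72 to 10.02 on the other 4 retina arrays. The thyroid hormone binding protein Crym read 8.48 against 8.40 to 9.05. Both lay within the range of the other arrays. Cryl1, a gulonate dehydrogenase, read 6.53 against 6.17 to 6.50, and 10.62 on the array labelled knockout replicate 3.

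Among 17 further genes of lens fibre cells, 11 lay above the mean of the other 4 arrays, with a median difference of 0.13, and 4 lay at least 1 log2 unit above each of them. Lim2, a fibre cell membrane protein, read 5.15, 7.85 and 5.04 in wild type and 5.16 and 5.04 in knockout replicates 1 and 2. Mip, the lens water channel aquaporin 0, read 4.26 to 4.31 on the other 4 arrays and 6.24 on wild-type replicate 2. Bfsp1, which encodes filensin, the filament partner of Bfsp2, read 4.11 to 4.30 and 5.99. These 3 genes were thus within 1 log2 unit of the Bacillus controls on 4 retina arrays and clearly above them on wild-type replicate 2, unlike the 9 crystallins among the members. Grifin, a galectin-related lens protein, read 5.25 to 5.53 and 7.09. The lens connexin Gja3 did not share the pattern, at 3.88 on wild-type replicate 2 and 3.78 to 4.02 on the others.

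**Figure D2:**
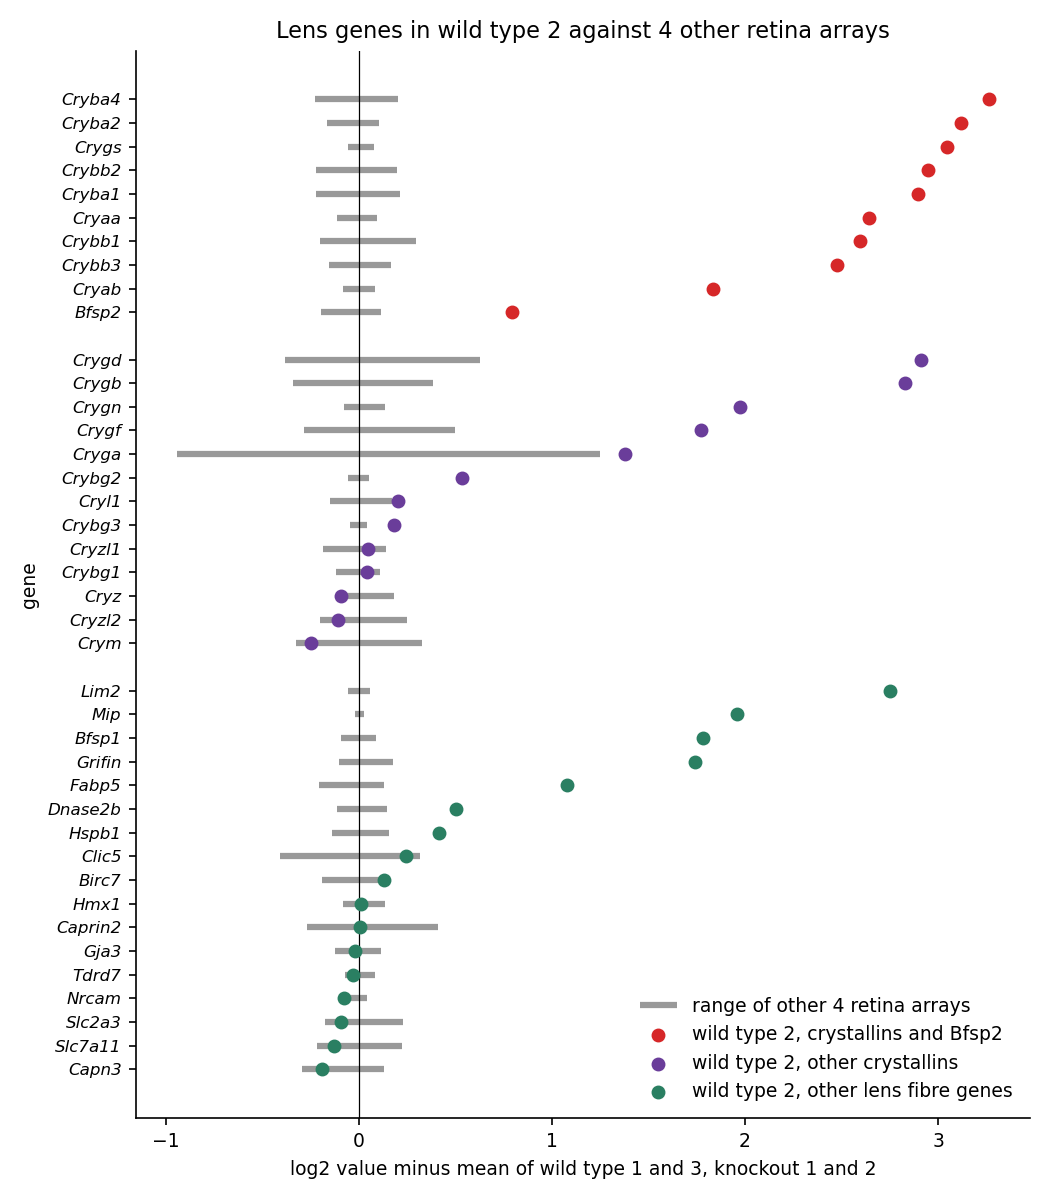
Log2 difference (horizontal axis) of wild-type replicate 2 from the mean of wild-type replicates 1 and 3 and knockout replicates 1 and 2 for the 10 genes, 13 further crystallins and 17 further lens fibre genes, 1 point a gene; grey bars span the other 4 arrays. The 10 genes lie from 0.80 to 3.26, Lim2, Mip, Bfsp1 and Grifin from 1.74 to 2.75, and Cryz and Crym within the grey bars.

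As lists, lens transcription factors and the other small heat shock proteins did not follow the crystallins. Of 12 factors measured, 6 lay above the other 4 arrays on wild-type replicate 2, with a median difference of 0.05. Maf, which activates crystallin genes in fibre cells, read 7.60 there and 7.24 to 7.51 on the other 4. Meis1 and Mafg, with the largest differences of the list at 0.42 and 0.34, also lay above each of the other 4 arrays. In the other direction, Sox2 stood at -0.18, and Foxe3, a factor of lens epithelium, read 5.29 against 5.31 to 5.60. Pax6 read 10.25 to 10.57 and Six3 9.28 to 9.72 on the other 4 arrays. Whether such levels mask a small rise was not tested. Of 7 other small heat shock protein genes 4 lay above, also with a median of 0.05. Hspb1, a stress-induced relative of the alpha-crystallins, read 8.22 against 7.67 to 7.96, and Hspb6 read 9.21 against 9.34 to 9.94. Hspb2, which neighbours Cryab in the gene order, read 4.88 against 4.55 to 4.96.

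Genes next to the members on their chromosomes stayed near the other arrays. Cryba4, Crybb1, Crybb2 and Crybb3 lie on chromosome 5, Cryab and Bfsp2 on chromosome 9, and Cryba2, Cryba1, Crygs and Cryaa on chromosomes 1, 11, 16 and 17. The 2 measured genes on either side of each, other than crystallins, made 32 genes. Their differences on wild-type replicate 2 ran from -0.25 to 0.51 with a median of 0.02, and 0 of 32 lay 1 log2 unit above each other retina array.

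Of the 22 genes that stood at least 1 log2 unit higher on wild-type replicate 2 than on each other retina array, 9 were members, 4 were further crystallins and 4 were further lens fibre genes. The remaining 5 were Mobp, Mlana, Cd24a, Nupr1 and Egr1. Mobp, a myelin protein gene, read 5.02 on wild-type replicate 2 and 2.90 to 3.34 on the other 4. Egr1, an immediate early gene, read 13.58 there, but 12.51 on knockout replicate 1 and 8.28 to 10.72 on the other 3. On the other side, the largest gap was that of Xist, a noncoding RNA that silences an X chromosome, which read 7.83 on wild-type replicate 2 and 10.02 to 11.69 on the other 4. By Pearson correlation with the mean of the 10 genes over the 5 retina arrays, among the 28 other genes that spanned at least 2 log2 units, the most similar were Crygn (0.999), Lim2 (0.993), Crygb (0.991), Mobp (0.984) and Crygd (0.977). These values share arrays and rest on wild-type replicate 2, through which all 5 genes reached that span. On the other 4 arrays Crygn and Mobp lay below the Bacillus controls, so their likeness there cannot be read. Over those 4 arrays alone the correlation was 0.98 for Crygb and 0.90 for Crygd, but -0.37 for Lim2. The likeness of Lim2 thus came from wild-type replicate 2.

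The summed level of pigment epithelium markers was also highest on wild-type replicate 2, and its part in the crystallin difference was not tested. Of 18 markers, 13 lay above the mean of the other 4 arrays, with a median difference of 0.64. Their summed linear level was 15836 to 21947 in wild type, with the maximum on replicate 2, and 14678 and 17971 in knockout replicates 1 and 2. All but 1 (Cldn19) read above the Bacillus controls on all 5 retina arrays. The labels give the tissue as freed of pigment epithelium. Not every marker is specific to it, since Rlbp1 was also listed for Muller glia, so detection alone does not show carry-over. Mlana, a melanosome protein, read 6.63 against 4.82 to 5.30, and Pmel, which forms melanosome fibrils, read 8.56 against 6.71 to 7.58. Rpe65, the retinoid isomerase of the visual cycle, read 10.82 against 9.54 to 10.15. Ttr, the brightest marker and the one with most weight in the linear sum, read 12.99 against 12.25 to 12.65. Best1, Slc45a2, Otx2, Cldn19 and Krt18 did not lie above the mean of the other 4 arrays. Of 16 cornea and conjunctiva genes 4 lay above, with a median of -0.07, and of 14 iris and ciliary body genes 8, with a median of 0.07. The largest difference among the iris and ciliary body genes was that of Optc, which read 5.69 against 4.85 to 5.27. Rod markers had a median of 0.00, with 9 of 16 above.

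**Figure D3:**
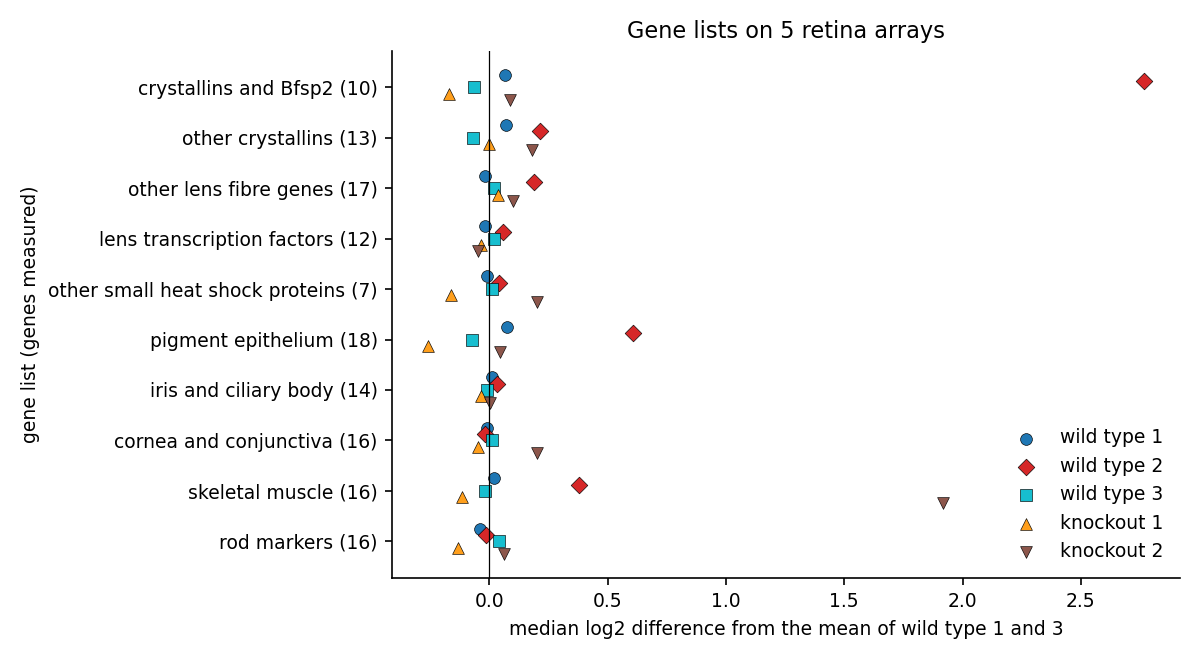
Median over each gene list (rows, with the number of genes measured) of the log2 difference from the mean of wild-type replicates 1 and 3 (horizontal axis), 1 point for each of 5 retina arrays. The crystallins and Bfsp2 stand at 2.77 on wild-type replicate 2, pigment epithelium genes at 0.61 there, and skeletal muscle genes at 1.92 on knockout replicate 2.

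Smaller differences ran through the other 4 retina arrays. The 10 genes spanned 0.13 to 0.50 there, with a median span of 0.31, where the median over all genes was 0.25. Knockout replicate 2 was the highest and knockout replicate 1 the lowest of these 4 arrays for 6 of the 10 genes (Cryaa, Cryba1, Crybb1, Crybb2, Crybb3 and Crygs), where 12.9% of all genes had that order. Knockout replicate 1 was lowest for 9 of the 10, with Cryab the exception, and for 31.7% of all genes. The exception rests on the brighter Cryab probe set. Of these 4 arrays, the other informative one was highest on knockout replicate 2, at 9.87, and lowest on knockout replicate 1, at 9.59. The order in the 10 genes was noticed after the values were seen, and genes of one tissue do not vary independently. Pigment epithelium markers were also low on knockout replicate 1. Their median log2 difference from the mean of wild-type replicates 1 and 3 was -0.26 there and 0.05 on knockout replicate 2. For the 10 genes it was -0.17 and 0.08. A shared origin was not tested.

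Gamma-crystallins A, B, D and F had the same order with wider spans. Cryga read 5.90 and 5.57 in wild-type replicates 1 and 3, 4.94 in knockout replicate 1 and 7.13 in knockout replicate 2, close to the 7.27 of wild-type replicate 2. It thus was high on 2 arrays. Knockout replicate 2 lay above the mean of the other 3 arrays by 1.66 for Cryga, 0.83 for Crygd, 0.66 for Crygf and 0.51 for Crygb. The same difference was 0.40 for Crybb1, 0.28 for Cryba1, 0.12 for Cryaa, 0.10 for Crygs and -0.04 for the brighter Cryab probe set. The other informative Cryab probe set stood at 0.16. Lim2 stood at -0.07. Skeletal muscle genes were also high on knockout replicate 2, with a summed linear level of 2526 against 1010 to 1257 on the other retina arrays, and their part was not tested.

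**Figure D4:**
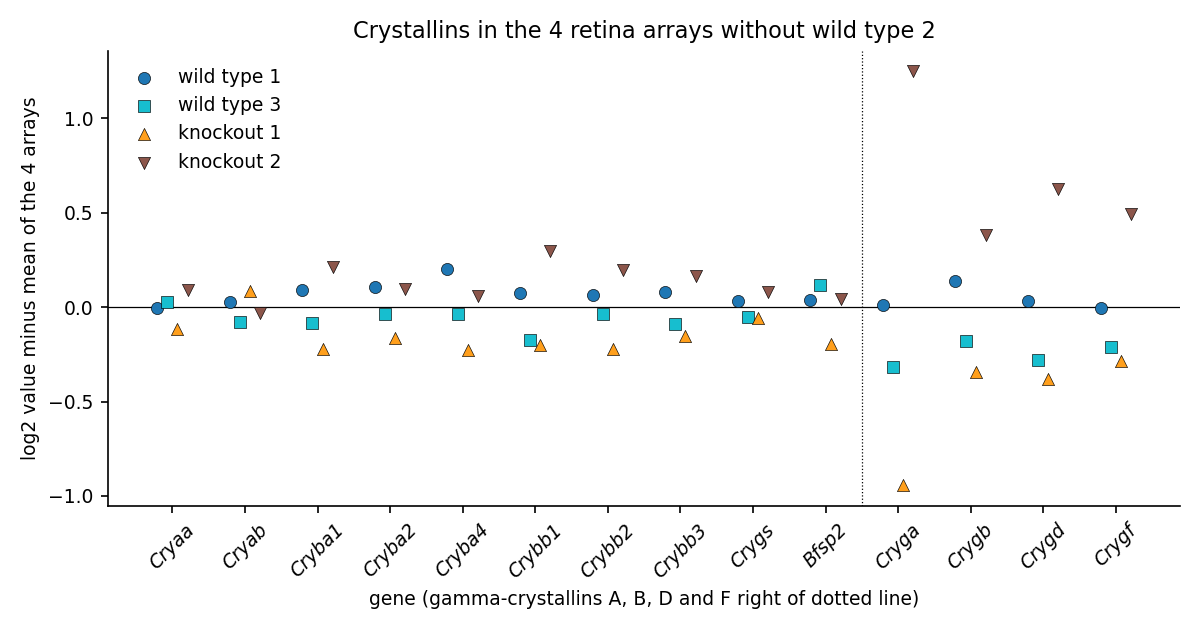
Log2 value minus the mean of the 4 retina arrays other than wild-type replicate 2 (vertical axis) for the 10 genes and, right of the dotted line, gamma-crystallins A, B, D and F, 1 point an array. Knockout replicate 2 is the highest for all 4 gamma-crystallins on the right, and knockout replicate 1 the lowest, with the widest span for Cryga at 4.94 to 7.13.

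Knockout was then compared with wild type, which asks whether loss of Nxnl2 goes with other crystallin levels in the retina. Wild-type replicate 2, on which the genes were chosen for high values, belongs to the wild-type group. The choice itself therefore pulls toward a lower knockout mean in the first pair of fits. In 6 arrays the array labelled knockout replicate 3, the lowest for every gene, does so as well. Without wild-type replicate 2, the changes in the 6-array fit still ran from -0.30 for Cryab to -2.01 for Cryba1. Nothing is read from the direction of the 6-array and 5-array fits. With all 6 arrays, which include the array of another tissue with clear Nxnl2, limma called 0 of the 10 genes at an adjusted p of 0.05 and 0% of all genes, and at an unadjusted p under 0.05 it held 132 genes, of which 0 were among the 10. The log2 change ran from -0.56 (SE 0.27) for Bfsp2 to -2.97 (SE 1.90) for Cryba1, with a median of -2.22. In the 5 retina arrays the median was -0.94, and 0 of the 10 were called, where 0.0110% of all genes were. The log2 difference was -1.23 (SE 0.82) for Cryba4 and -0.90 (SE 0.68) for Cryaa. The wild-type SD behind these means was 1.84 for Cryba4 (n = 3) and 1.52 for Cryaa (n = 3), against 0.20 and 0.15 in knockout (n = 2).

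Without wild-type replicate 2, the array the genes were chosen on, the difference between genotypes was close to 0. In wild-type replicates 1 and 3 against knockout replicates 1 and 2, the median log2 change of the 10 genes was -0.02 against -0.00 over all genes, with 4 of 10 above 0. Limma called 0 of the 10, where 0.0110% of all genes were called, and 0 of the 10 had an unadjusted p under 0.05. The log2 difference was -0.02 for Cryaa (95% interval -0.30 to 0.25), 0.05 for Cryab (-0.22 to 0.32) and 0.02 for Crygs (-0.25 to 0.29). The widest departures were those of Cryba4 at -0.16 (-0.48 to 0.15) and Bfsp2 at -0.15 (-0.44 to 0.13), and that of Crybb1 at 0.10 (-0.29 to 0.48). The intervals leave room for changes of up to 0.48 in either direction. A miss of the threshold with 2 arrays a group does not show that the genotypes are alike.

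**Figure D5:**
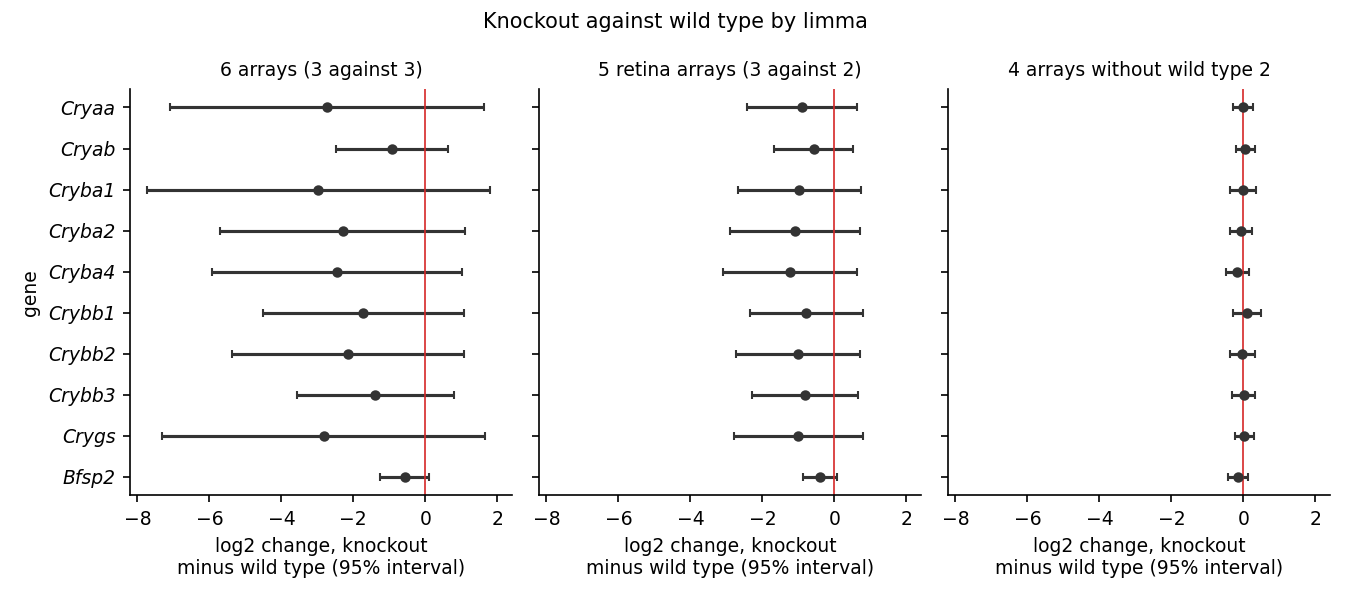
Log2 change of the 10 genes, knockout minus wild type (horizontal axis), by limma with 95% intervals, in 6 arrays, 5 retina arrays and 4 retina arrays without wild-type replicate 2. The median change goes from -2.22 through -0.94 to -0.02 as the array labelled knockout replicate 3 and then wild-type replicate 2 are left out. Every interval spans 0. The choice of genes pulls toward a lower knockout mean in 6 and 5 arrays. In 6 arrays the array labelled knockout replicate 3, the lowest for every gene, does so as well.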

How the data were processed

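RNA labelled as retinal was hybridised as biotin-labelled cRNA to one-colour Affymetrix arrays, per the labels' protocols. The deposited log2 values come from the authors' RMA run (named in the submitters' processing notes, without a version). RMA gives all arrays nearly the same distribution and no detection calls. All 6 columns were used without further scaling.

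Of 45101 probe sets, 64 controls were left out. The platform annotation named 1 gene for 34945, several for 932 and none for 9160, and only the first were named. A gene's value is its probe set with the highest mean over the 6 arrays. Groups come from the sample titles. The genotypes were compared with limma 3.58.1 (R 4.3.3); its two-sided p-values were adjusted over 18193 genes after Benjamini and Hochberg, and the procedure was tested on simulated data. The number of arrays limits the precision. Symbols and gene order come from RefSeq GRCm38.p6. Figures used matplotlib 3.10.9.

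The members, lists and tests were chosen with earlier results of these data known. Named genes were the 10 members, up to 4 genes a list by their difference on wild-type replicate 2, the 15 largest gaps above and 5 below it, and the 5 most alike in pattern; the text gives a selection, adding a few genes after their values were seen. Alternatives were a variance trend with robust prior, repeated quantile normalization, median centring, a filter on low values, other probe set rules, the replicate block, each array left out, and other limits for gap and level.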

Additional observations from a re-analysis of the deposited data

How the results depend on the processing

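In no setting was any of the 10 genes called, in 6, 5 or 4 arrays. With 4 arrays, adjusted p-values over all settings ran from 0.999 to 1, and the sign was that of the report in 82 of 100 values. Over all genes, 5 arrays gave 2 calls, 1 with the mean of all probe sets, and 1 to 8 with an array left out; 4 arrays gave 2 calls, 1 with the mean of all probe sets, and 1 to 26 with an array left out. With 6 arrays the counts without an array were 0 to 2. Where 1 array was left in a group it was assumed to vary like the other group. The count of 9 genes at least 1 log2 unit higher on wild-type replicate 2 was 9 in each setting run and 8 with a gap of 2. The 2 genes high on every retina array became 5 at the 75th percentile, 3 with the most variable probe set of a gene and 0 with probe sets under the 40th percentile left out.

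Whether replicate numbers pair the arrays could not be told. Deviations of same-numbered arrays from their group means correlated at -0.07, -0.01 and -0.08. The knockout mean there included the array labelled knockout replicate 3, which correlated with the others at only 0.848 to 0.853. The knockout deviations thus mostly carry its tissue difference, and the check cannot show pairing or its absence. With the replicate block, 0 genes were called with 6 arrays and 3 with 5, and 0 of the 10 members in either; unadjusted p was under 0.05 for 3 of 10 members (0.335% of all genes) with 6 arrays and 10 of 10 (3.63%) with 5. Both fits include wild-type replicate 2, the array the genes were chosen on; with 5 arrays wild-type replicate 3 does not enter the comparison. For 4 arrays no paired analysis was possible because the groups share only 1 number.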
